A study of Homo sapiens with 45 samples.

Results

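The synaptotagmin family was followed through 10 genes, *SYT1*, *SYT2*, *SYT3*, *SYT4*, *SYT5*, *SYT6*, *SYT7*, *SYT11*, *SYT13* and *SYT17*, of the 29159 genes counted by RNA sequencing (RNA-seq) in 3 neuroblastoma cell lines. The genes were taken by symbol, and all 10 were found. *SYT3* and *SYT5* were singled out because they rose with treatment in every line, so their treatment values chose them and are given below as a description, with no test. How the other 8 were picked from the family is not given, but earlier results of these data were known when they were chosen. The remaining synaptotagmins are therefore described as well. The lines, all of the adrenergic (ADRN) type of neuroblastoma, a childhood tumor of the sympathetic lineage, were SK-N-BE(2)C (*MYCN* amplified, 1p loss), IMR-32 (*MYCN* and *MEIS1* amplified, 1p loss) and SH-SY5Y (*ALK* mutant, gains of 1q and 17q). Each line was sequenced as control cells, after 24 h of 1 μM palbociclib (PB), an inhibitor of the cell-cycle kinases CDK4 and CDK6, and after a longer PB treatment, which lasted 5 days for IMR-32 and SH-SY5Y cells but 7 days for SK-N-BE(2)C. All 9 groups had 5 replicates, plated from different passages in independent experiments, which gives 45 libraries. Control cells were harvested together with the 24 h cells, so longer PB differs from control also in time in culture, and the 7 and 5 days cannot be told apart from the line.

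Synaptotagmins are mostly membrane proteins of secretory vesicles and the cell surface. They carry a pair of C2 domains, which in many members bind calcium and acidic lipids and in others lack the calcium-binding residues. SYT1, SYT2 and SYT9 are the fast calcium sensors that trigger fusion of synaptic vesicles by SNARE proteins, SYT7 is a slower sensor of higher affinity, and SYT4 and SYT11 have a substitution at a calcium-binding position of the first C2 domain. Sympathetic neurons and chromaffin cells, the normal relatives of neuroblastoma cells, use several of these proteins to release transmitter from synaptic and dense-core vesicles.

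After longer PB, the summed level of the 10 genes, in RPKM (reads per kilobase of exon, scaled to library size), was higher than in control in every library of every line. It was 94.6 ± 0.92 (SD, n = 5) in control SK-N-BE(2)C, 128.9 ± 3.28 at 24 h and 269.7 ± 12.1 at 7 days. In IMR-32 the sum was 159.3 ± 34.6, 201.9 ± 37.6 and 310.4 ± 21.3, and in SH-SY5Y it was 145.8 ± 20.8, 187.7 ± 27.3 and 330.5 ± 20.2. Most of it came from *SYT11*, *SYT1* and, in SH-SY5Y, *SYT4*, and the members did not all move together. *SYT11* and *SYT17* were called higher after longer PB in all 3 lines, *SYT1* too but by a small margin in IMR-32, whereas *SYT2* fell in IMR-32 and *SYT6* was near or at 0 counts throughout. In these bulk cultures, more cells that express a gene and more of its RNA per cell cannot be told apart.

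**Figure D1:**
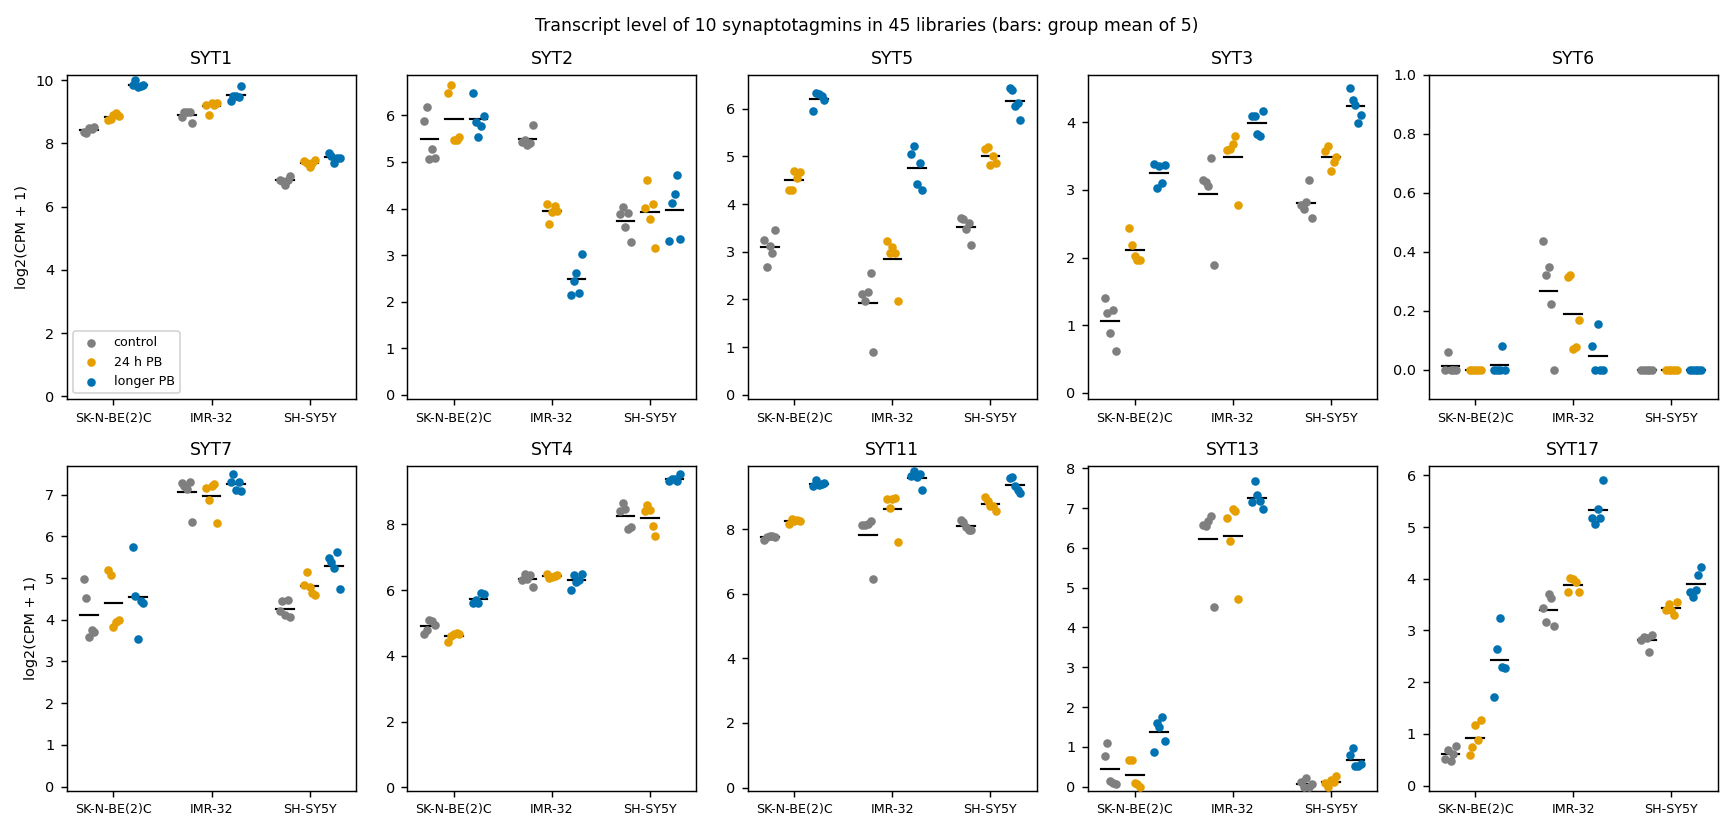
Level of each of the 10 synaptotagmin genes in every library, as log2 of CPM (counts scaled to a library total of 1000000) plus 1, by line and treatment, with points for the 5 libraries of a group and bars at the mean of their log values. *SYT5*, *SYT11* and *SYT17* climb from control to longer PB in each line, *SYT2* drops in IMR-32 alone and *SYT6* stays at the bottom of its panel.

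A call required both a log2 fold change beyond 0.5 in size and an adjusted p below 0.05 in edgeR's quasi-likelihood test, corrected over all genes by the Benjamini-Hochberg method. Of the 8 members other than *SYT3* and *SYT5*, 7 passed the filter on low counts in each of the *MYCN*-amplified lines, where *SYT6* did not, and 6 in SH-SY5Y, where *SYT6* and *SYT13* did not. At 24 h none was called in SK-N-BE(2)C, where 21.5% of all tested genes were, and DESeq2 called 0 as well. However, 3 (*SYT1*, *SYT4* and *SYT11*) had an unadjusted and an adjusted p under 0.05 in edgeR and fell short by the fold limit alone. With library size alone *SYT11* was called (0.50). In IMR-32 1 was called higher and 1 lower at 24 h, beside 7.87% and 10.5% of all genes. In SH-SY5Y 4 were higher and none lower at 24 h, beside 10.5% and 11%. The IMR-32 count of 2 was 1 without control replicate 2 or without 24 h replicate 2, and 3 without 24 h replicate 5.

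After longer PB, 5 members were called higher and none lower in SK-N-BE(2)C, beside 24.5% of all tested genes called higher and 22.3% lower. In IMR-32 3 were higher and 1 lower, beside 16.6% and 15.5%, and in SH-SY5Y 5 were higher and none lower, beside 18.6% and 17.3%. The median log2 fold change of the tested members was 1.02 in SH-SY5Y, 0.63 in IMR-32 and 1.39 in SK-N-BE(2)C, and that of all tested genes was 0.011, 0.003 and 0.012. The 5 of SK-N-BE(2)C include *SYT13*, which passed the filter there only through its 7-day libraries and so had to differ, and 4 were called beside it. The median of 1.39 includes *SYT13* too, whose change lay above it. The call of *SYT13* was lost with no filter and with replicates 3 to 5 summed. It was also lost without control replicate 3, 4 or 5 or without 7-day replicate 4. These counts and medians describe the members and are no test of the family. Both treatment times were compared with the same controls.

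Between 24 h and longer PB, 5 members were called higher and none lower in SK-N-BE(2)C, again with *SYT13* among them, beside 17.5% and 14.4% of all tested genes. IMR-32 had 2 higher and 1 lower, beside 10.8% and 8.86%, and SH-SY5Y had 2 higher and none lower, beside 10.5% and 6.23%. One of the 2 in IMR-32, *SYT11* (0.86 ± 0.29, adjusted p = 0.0357, edgeR), was not called with no filter (adjusted p = 0.0887) or without any 1 of 6 libraries, namely 24 h replicates 2 and 5 and longer replicates 1 to 4 (adjusted p = 0.0567 to 0.0729), with differences of 0.68 to 0.86. Without replicate 5 of all groups it was called, at 0.76 (adjusted p = 4.32e-07, edgeR). The count for SH-SY5Y was 4 without 24 h replicate 2 and 1 without 24 h replicate 5. The ranges of the 5 control and the 5 longer libraries did not overlap, with the treated libraries higher, for 5 of the 6 members with a mean of at least 1 CPM in SH-SY5Y, 4 of 7 in IMR-32 and 4 of 6 in SK-N-BE(2)C. *SYT6*, and *SYT13* outside IMR-32, were under that level. *SYT17* reached it in SK-N-BE(2)C only through the 7-day libraries, in which it is high. Its means there were 0.53 CPM in control, 0.94 CPM at 24 h and 4.74 CPM at 7 days. Its place among the 4 of SK-N-BE(2)C was thus partly fixed by that level. Among all genes of at least 1 CPM the share was 28.1%, 20.1% and 27.1%.

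**Figure D2:**
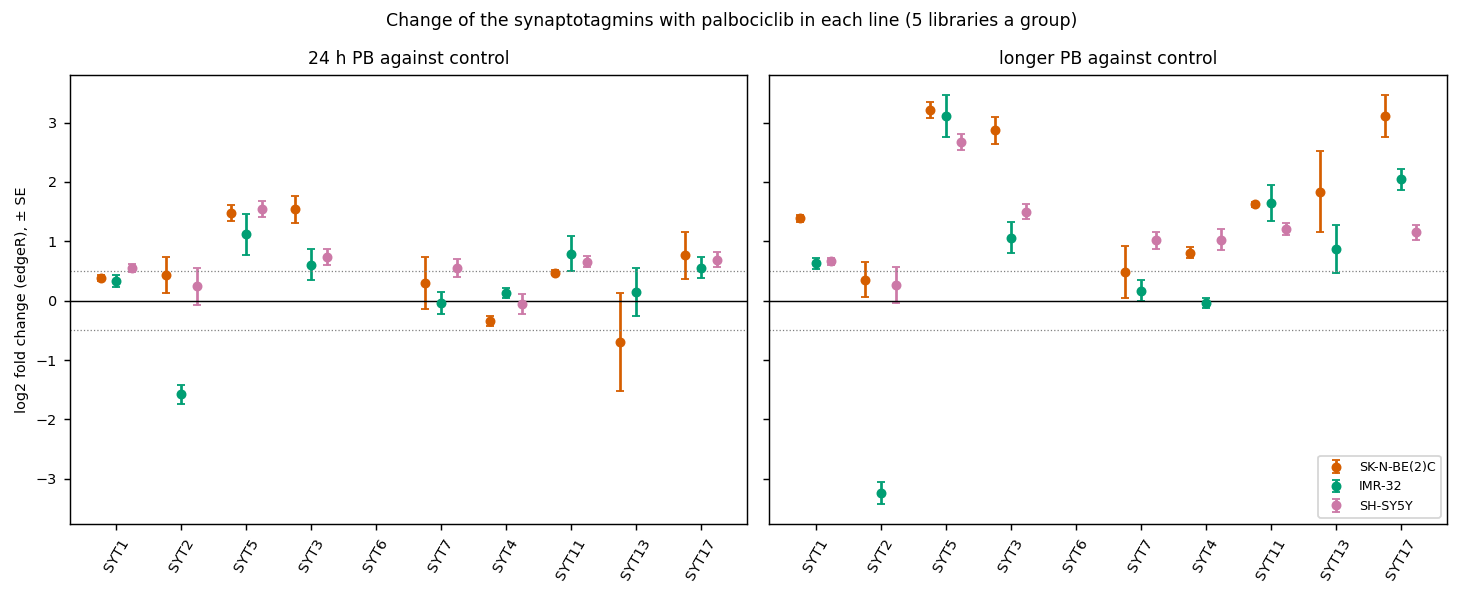
Log2 fold change against control at 24 h and after longer PB for each synaptotagmin gene and line, with bars of 1 standard error and dotted lines at 0.5 above and below 0. *SYT5* lies above 1 in all 6 comparisons, *SYT2* reaches −3.24 in IMR-32, and *SYT6*, which was not tested, has no point.

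Libraries held 13459219 to 25441812 counts, so 3 counts correspond to at most 0.223 CPM. All 8 adrenergic marker genes were found and were at 1 CPM or more on average in each group, except *TH*, which was under 1 CPM in SH-SY5Y. Their summed level was 2080 to 2390 CPM in control SK-N-BE(2)C, 2930 to 3150 CPM at 24 h and 2570 to 3090 CPM after longer PB. For IMR-32 it was 2020 to 3080, 3180 to 3980 and 2890 to 3530 CPM, and for SH-SY5Y 3910 to 5160, 5720 to 7540 and 4070 to 5850 CPM, so that every 24 h library was above every control of its line. The sum of 6 glial and blood markers, of which *PTPRC* and *PECAM1* were under 1 CPM throughout, was 6.54 to 10.7 CPM in control SK-N-BE(2)C and 10.8 to 14.7 CPM after longer PB, 1.95 to 3.67 and then 5.79 to 10.3 CPM for IMR-32, and 4.63 to 8.18 and then 4.52 to 8.0 CPM for SH-SY5Y. The sum of 7 mesenchymal markers was 80.3 to 186 CPM in control IMR-32 and 23.1 to 40.2 CPM after longer PB, 206 to 242 and then 271 to 462 CPM for SK-N-BE(2)C, and 411 to 697 and then 318 to 524 CPM in SH-SY5Y, and the part of these 3 lists in the changes of the family was not tested. IMR-32 replicate 5 stood apart from its group in all 3 groups. The median absolute log2 difference of its genes from the group was 0.263 in control, 0.223 at 24 h and 0.193 after longer PB, where most other IMR-32 libraries were at 0.0882 to 0.114 and 24 h replicate 2 was at 0.214. Replicates 1 and 2 of SK-N-BE(2)C differed from replicates 3 to 5 in several members. Values are given with and without these libraries where a result rests on them, and what set them apart was not tested.

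*SYT5*, a synaptotagmin of dense-core vesicles, had the highest fitted log2 fold change of the members in each line after longer PB, although in SK-N-BE(2)C that of *SYT17* (3.11 ± 0.36) was within its error, and in IMR-32 the fall of *SYT2* was larger in size. SK-N-BE(2)C had 8.43, 5.44, 7.64, 6.84 and 9.90 CPM in the 5 control libraries, 18.6, 18.5, 24.8, 22.4 and 24.6 CPM at 24 h and 60.7, 78.9, 78.8, 76.0 and 71.4 CPM at 7 days. Each step lay wholly above the one before. The log2 fold change against control was 1.47 ± 0.13 (SE, n = 5 per group) at 24 h and 3.21 ± 0.14 at 7 days, or 2.78-fold and 9.28-fold. In SH-SY5Y the libraries were at 12.1, 11.8, 10.2, 11.2 and 7.88 CPM, then 34.5, 35.5, 27.2, 31.1 and 28.1 CPM and then 85.8, 83.1, 66.0, 68.5 and 53.3 CPM, which is 2.91-fold and 6.37-fold of control on the fitted scale. Replicate 5 was the lowest SH-SY5Y control and the lowest after longer PB. In IMR-32 *SYT5* started lowest, at 3.32, 2.91, 3.43, 4.85 and 0.862 CPM, and went to 8.41, 6.81, 7.59, 6.84 and 2.88 CPM and 32.1, 36.2, 20.3, 27.9 and 18.7 CPM. Replicate 5 was the lowest IMR-32 library in each group and, at 24 h, lay within the control range, so the control and 24 h ranges overlapped. The fitted IMR-32 changes were 1.12 ± 0.34 and 3.11 ± 0.35, and 2.99 after longer PB without replicate 5. Per length of exon, *SYT5* made up 1.56% of the summed RPKM of the 10 genes in control SK-N-BE(2)C and 5.22% at 7 days, 0.352% and then 1.66% in IMR-32, and 1.41% and then 4.13% in SH-SY5Y.

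*SYT3*, a calcium-binding member found largely at the plasma membrane, had a lower mean RPKM than *SYT5* after longer PB in every line, although in IMR-32 (3.91 ± 0.48 against 5.20 ± 1.44 RPKM, SD, n = 5) the ranges overlapped. It was scarce in control SK-N-BE(2)C, at 1.64, 1.27, 0.848, 1.34 and 0.541 CPM, and reached 4.40, 3.54, 3.08, 2.90 and 2.91 CPM at 24 h and 9.41, 7.13, 9.25, 7.60 and 9.31 CPM at 7 days, with no overlap between the groups. The log2 fold changes were 1.54 ± 0.23 and 2.87 ± 0.23. The 7-day value was 2.46 in replicates 1 and 2 alone and 3.25 in replicates 3 to 5 alone. In SH-SY5Y *SYT3* was at 5.87, 5.58, 6.10, 7.87 and 4.97 CPM in control, 10.9, 11.5, 8.72, 9.70 and 10.2 CPM at 24 h and 21.8, 19.1, 18.2, 14.9 and 16.3 CPM at 5 days, for changes of 0.73 ± 0.13 and 1.496 ± 0.13. In IMR-32 it was at 7.87, 7.66, 7.35, 10.1 and 2.70 CPM, 11.0, 11.1, 11.8, 12.97 and 5.83 CPM and 16.1, 16.1, 13.2, 12.9 and 16.9 CPM. Replicate 5 was the lowest library at the first 2 of these times and the highest at the third, and the change after longer PB was 1.06 ± 0.26 with it and 0.81 without it.

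The sequence upstream of the genes was read for *SYT5* and *SYT3*, whose rise led to this choice of genes, for *SYT11*, which was called higher in all 3 lines, and for *SYT1* and *SYT2*, the paired fast sensors that moved apart in IMR-32. Promoters are from RefSeq on GRCh38.p14, whereas the counts are on hg19, and the 250 bases before the most upstream annotated start are shown 5′ to 3′ on the strand of the gene. *SYT5* and *SYT3* lie on the minus strand of chromosome 19, at chr19:55180290-55180539 and chr19:50658106-50658355. *SYT11* is on the plus strand at chr1:155859317-155859566, *SYT1* on the plus strand at chr12:78864524-78864773 and *SYT2* on the minus strand at chr1:202710455-202710704. On GRCh37, the genes span chr19:55682564-55691657 (*SYT5*), chr19:51124564-51143138 (*SYT3*), chr1:155829358-155854990 (*SYT11*), chr12:79257773-79845788 (*SYT1*) and chr1:202559724-202679582 (*SYT2*) in a GENCODE annotation. Capitals mark matches to a searched motif on either strand. *SYT7*, *SYT13* and *SYT17* had no entry in the table.
SYT5: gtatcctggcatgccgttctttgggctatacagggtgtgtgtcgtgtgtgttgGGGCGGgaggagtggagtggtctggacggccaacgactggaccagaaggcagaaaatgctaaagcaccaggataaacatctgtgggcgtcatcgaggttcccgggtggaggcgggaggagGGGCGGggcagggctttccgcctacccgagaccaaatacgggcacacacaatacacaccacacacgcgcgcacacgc
SYT3: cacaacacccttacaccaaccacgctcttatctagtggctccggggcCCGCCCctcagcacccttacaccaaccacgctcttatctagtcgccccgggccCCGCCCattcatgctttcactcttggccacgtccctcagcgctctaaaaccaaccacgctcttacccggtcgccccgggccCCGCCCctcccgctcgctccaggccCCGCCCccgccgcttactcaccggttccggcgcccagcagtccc
SYT11: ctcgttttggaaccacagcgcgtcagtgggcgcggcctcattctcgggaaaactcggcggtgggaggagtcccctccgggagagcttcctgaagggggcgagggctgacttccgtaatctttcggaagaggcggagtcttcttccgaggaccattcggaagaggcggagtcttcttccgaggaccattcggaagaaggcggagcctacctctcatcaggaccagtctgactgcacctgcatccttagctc
SYT1: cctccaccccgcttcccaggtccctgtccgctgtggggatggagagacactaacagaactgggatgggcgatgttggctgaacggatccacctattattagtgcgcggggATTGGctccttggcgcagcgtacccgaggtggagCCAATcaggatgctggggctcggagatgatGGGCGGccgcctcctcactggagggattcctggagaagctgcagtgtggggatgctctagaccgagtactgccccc
SYT2: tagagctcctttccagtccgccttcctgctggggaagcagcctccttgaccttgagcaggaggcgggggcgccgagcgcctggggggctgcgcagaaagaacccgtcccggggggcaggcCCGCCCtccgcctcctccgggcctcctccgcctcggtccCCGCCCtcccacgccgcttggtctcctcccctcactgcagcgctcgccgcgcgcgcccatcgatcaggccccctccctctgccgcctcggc

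The motifs searched were CACGTG and CAGCTG (E-boxes), GGGCGG (GC box), CCAAT, TGACGTCA (cyclic AMP response element), TTTCCCGC and TTTGGCGC (E2F sites). GGGCGG, which 42.6% of all 35116 promoter windows hold, matched 2 times in the *SYT5* window, 4 times in that of *SYT3*, 2 times in that of *SYT2* and once in that of *SYT1*. CCAAT, in 32% of windows, matched 2 times in the *SYT1* window. No motif of the set matched in the *SYT11* window, which instead holds a run of 33 bases, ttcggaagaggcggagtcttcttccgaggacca, 2 times in direct succession, and the *SYT3* window holds a run of 31 bases 2 times. CACGTG, in 6.34% of windows, matched at 1 start of *SYT6* and at no start of the other 6 members with an entry. These are matches of letters, and the gene counts do not show which start was in use.

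*SYT1*, the principal fast calcium sensor of synaptic vesicles, rose in each line after longer PB. SK-N-BE(2)C held 328, 322, 356, 353 and 366 CPM in control, 428, 436, 478, 497 and 463 CPM at 24 h and 916, 1032, 887, 891 and 927 CPM at 7 days. All 24 h libraries were above all controls, but the log2 change of 0.38 ± 0.055 was under the limit for a call (adjusted p = 2.68e-05, edgeR), and the change at 7 days was 1.39 ± 0.055 (adjusted p = 1.25e-11, edgeR). SH-SY5Y had the lowest level, 113, 112, 102, 113 and 125 CPM in control, 172, 166, 150.0, 167 and 178 CPM at 24 h and 207, 195, 167, 185 and 184 CPM at 5 days. There the call was already made at 24 h, with a change of 0.55 ± 0.064 (adjusted p = 1.31e-06, edgeR) against 0.66 ± 0.064 after longer PB, and the difference between the 2 times was 0.11 (95% interval −0.0150 to 0.235). In IMR-32 the libraries were at 456, 513, 504, 509 and 399.8 CPM, 587, 480.4, 619.5, 599 and 619.6 CPM and 655, 725, 717, 701 and 907 CPM. Replicate 5 was the lowest control and the highest library after longer PB, and the longer change of 0.63 ± 0.10 (adjusted p = 8.02e-05, edgeR) was 0.49 without it (adjusted p = 4.5e-05), under the limit for a call.

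*SYT2*, the other fast sensor of the set and the closest relative of *SYT1*, fell in IMR-32. Its 5 control libraries held 42.0, 43.6, 40.3, 41.2 and 54.8 CPM, those at 24 h 16.2, 11.6, 14.3, 15.6 and 14.5 CPM, and those at 5 days 3.43, 4.41, 5.16, 3.56 and 7.11 CPM. The 3 groups did not overlap, and the log2 change was −1.58 ± 0.16 at 24 h (adjusted p = 2.16e-06, edgeR) and −3.24 ± 0.18 at 5 days (adjusted p = 1.29e-08, edgeR), a level 9.44 times lower than in control. Without replicate 5 the longer change was −3.34. Per length, *SYT2* went from 5.68 ± 0.76 to 0.606 ± 0.19 RPKM (SD, n = 5) in this line, and from 3.88% to 0.198% of the summed RPKM of the 10 genes. *SYT2* in SK-N-BE(2)C was at 57.5, 71.1, 32.6, 37.7 and 32.9 CPM in control and 88.0, 57.2, 45.3, 53.9 and 62.2 CPM at 7 days. At 24 h the libraries were at 87.7, 99.6, 43.6, 43.6 and 45.4 CPM. Replicates 1 and 2 were the highest controls and the highest at 24 h, and the ranges overlapped, although each 24 h library was above the control of its own number (5 of 5). The change at 24 h was 0.43 ± 0.30 (adjusted p = 0.258, edgeR). The 7-day change of 0.35 ± 0.30 was not called (adjusted p = 0.302, edgeR), while replicates 3 to 5 alone gave 0.59 (adjusted p = 0.000239). In SH-SY5Y it ranged over 8.67 to 15.4 CPM in control and 8.90 to 25.5 CPM after longer PB, also without a call (log2 change 0.26 ± 0.31). Of the exon bases annotated to *SYT2*, 2111 of 7811 overlap *PPP1R12B* on the other strand, with the strand used for counting not given in the sources used here. *PPP1R12B* was at 50.6 to 58.1 CPM in control IMR-32, 25.99 to 53.4 CPM at 24 h and 65.1 to 77.9 CPM after longer PB, with log2 changes of −0.19 ± 0.14 and 0.39 ± 0.14 that were not called.

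*SYT9*, a further fast sensor, is outside the 10 genes. In SH-SY5Y it went from 15.3 to 20.2 CPM in control to 73.0 to 158 CPM at 5 days, a log2 change of 2.47 ± 0.20 (adjusted p = 7.61e-08, edgeR). SK-N-BE(2)C had less of it at 24 h (−0.86 ± 0.22, adjusted p = 0.00536, edgeR) and more at 7 days (0.51 ± 0.22, adjusted p = 0.0456, edgeR). In IMR-32 it was at most 1.105 CPM in any library, and both treated ranges overlapped that of control. It was called lower there at both times, but it passed the filter mainly through its control libraries, in which it is high. The longer change in SH-SY5Y exceeded that in SK-N-BE(2)C by 1.99 ± 0.28 and that in IMR-32 by 3.38 ± 0.47 on the log2 scale (adjusted p = 5.82e-07 and 5.61e-07, edgeR, joint fit).

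*SYT7*, the high-affinity sensor of asynchronous release and lysosome exocytosis, rose in SH-SY5Y. The libraries held 17.5, 20.9, 16.3, 21.2 and 15.7 CPM in control, 27.6, 34.2, 26.3, 24.1 and 23.2 CPM at 24 h and 43.4, 40.8, 36.7, 48.5 and 25.8 CPM at 5 days, and both treated groups lay wholly above the controls. The log2 changes were 0.55 ± 0.14 (adjusted p = 0.00458, edgeR) and 1.02 ± 0.14 (adjusted p = 8.17e-06, edgeR), and the first of them fell to 0.43 and was not called without 24 h replicate 2. IMR-32 had the most *SYT7* of the lines, 155, 147, 139, 157 and 79.9 CPM in control and 158, 179, 138, 156 and 136 CPM after longer PB, with replicate 5 the lowest in both. The longer change there was 0.17 ± 0.18 (95% interval −0.184 to 0.522) and was not called. The SK-N-BE(2)C controls were at 30.3, 22.1, 11.0, 12.4 and 12.1 CPM and the 7-day libraries at 52.6, 22.9, 10.6, 20.9 and 20.2 CPM. Here replicate 1 was highest in each group, the spread within a group was wider than the difference between groups, and the change of 0.48 ± 0.44 was not called (adjusted p = 0.339, edgeR).

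*SYT11*, a calcium-independent member linked to endocytosis and vesicle trafficking, was among the most abundant of the family and rose in all 3 lines. SK-N-BE(2)C libraries held 203, 214, 218, 219 and 214 CPM in control, 287, 314, 303, 308 and 301 CPM at 24 h and 648, 728, 659.7, 668 and 684 CPM at 7 days. The groups were well separated and tight, with a log2 change of 0.47 ± 0.042 at 24 h, under the limit for a call (adjusted p = 1.82e-07, edgeR), and of 1.62 ± 0.043 at 7 days (adjusted p = 1.11e-13, edgeR). SH-SY5Y went from 308, 296, 269, 252 and 252 CPM to 507, 469.7, 422, 415 and 378 CPM at 24 h and 770.4, 781, 649, 586 and 549 CPM at 5 days. Again no group overlapped another, and the changes were 0.66 ± 0.10 (adjusted p = 1.87e-05, edgeR) and 1.21 ± 0.10 (adjusted p = 9.82e-09, edgeR). In IMR-32 the values were 278, 279, 287, 301 and 87.1 CPM, 483, 401, 489, 496 and 195 CPM and 802, 886, 782, 829 and 591 CPM. Replicate 5 was the lowest in each group, in control at 87.1 CPM against at least 278 CPM in the other 4. With it the 24 h change was 0.79 ± 0.29 (adjusted p = 0.0504, edgeR), just short of a call, where DESeq2 made one (0.76, adjusted p = 0.0255), and without it 0.76 (adjusted p = 3.28e-07), whereas the longer change was called either way, at 1.65 ± 0.30 and 1.52.

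*SYT4*, the close relative of *SYT11* and a protein of the Golgi and dense-core vesicles, rose after longer PB in SH-SY5Y and SK-N-BE(2)C and was called at 24 h in no line. In SH-SY5Y it was at 336, 396, 353, 232 and 239 CPM in control, 336, 385, 344, 246 and 197 CPM at 24 h and 637, 657, 665, 631 and 734 CPM at 5 days. The control and 24 h libraries covered nearly the same range, with replicates 4 and 5 low in both, and the 5-day libraries were all above them (log2 change 1.03 ± 0.17, adjusted p = 7.97e-05, edgeR). The SK-N-BE(2)C libraries were at 24.4, 26.6, 33.3, 32.3 and 29.5 CPM, 20.4, 23.4, 24.6, 25.0 and 24.1 CPM and 48.0, 51.3, 47.7, 58.8 and 57.6 CPM. The 24 h change was −0.34 ± 0.089, under the limit for a call, and the 7-day change 0.81 ± 0.088 (adjusted p = 4.38e-07, edgeR). In IMR-32 *SYT4* ranged over 68.0 to 88.5 CPM, 82.0 to 88.3 CPM and 62.8 to 88.4 CPM, and the longer change was −0.04 ± 0.086 (95% interval −0.209 to 0.130). Between 24 h and longer PB, *SYT4* rose by 1.09 ± 0.17 in SH-SY5Y and 1.15 ± 0.089 in SK-N-BE(2)C on the log2 scale (adjusted p = 0.000193 and 3.75e-08, edgeR).

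*SYT17*, also known as B/K protein and a member without a transmembrane segment, rose after longer PB in every line. In IMR-32 it was at 9.82, 7.92, 11.98, 11.3 and 7.47 CPM, 12.3, 15.1, 14.9, 14.4 and 12.4 CPM and 35.1, 32.3, 39.9, 35.1 and 59.2 CPM. No group overlapped another, and the changes were 0.56 ± 0.17 (adjusted p = 0.0215, edgeR), a call lost without replicate 2 of either group or control replicate 5 (0.48 to 0.51) and made without replicate 5 of all groups (0.52, adjusted p = 0.00361), and 2.04 ± 0.17 (adjusted p = 6.07e-07, edgeR), the latter 1.79 without replicate 5, the highest library. SH-SY5Y rose from 5.99, 6.36, 6.20, 5.01 and 6.50 CPM to 9.49, 10.4, 9.49, 8.83 and 10.7 CPM and 12.4, 11.5, 12.7, 15.9 and 17.6 CPM, changes of 0.69 ± 0.12 and 1.15 ± 0.12 (adjusted p = 0.000175 and 2.5e-07, edgeR). Again the 3 groups were apart from each other. The SK-N-BE(2)C controls were low, at 0.421, 0.614, 0.399, 0.520 and 0.703 CPM, the 24 h libraries were at 0.4995, 0.668, 1.27, 0.837 and 1.41 CPM, and the 7-day libraries were at 2.27, 5.24, 8.41, 3.91 and 3.86 CPM. Exons of *SYT17* overlap unnamed genes over 533 bases on the other strand and 167 on the same strand. All 7-day SK-N-BE(2)C libraries lay above the rest but were widely spread, and the change was 3.11 ± 0.36 (adjusted p = 8.46e-07, edgeR).

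*SYT13*, an atypical member that does not bind calcium, was abundant in IMR-32 and near the detection limit in the other lines. In IMR-32 it was at 94.0, 93.1, 101, 109.8 and 21.9 CPM in control, 108, 71.5, 124, 119.7 and 25.4 CPM at 24 h and 140.3, 203, 160.2, 144 and 124 CPM at 5 days. All 5-day libraries exceeded all controls, but replicate 5 was far below the others in control and at 24 h, and the change of 0.87 ± 0.40 was not called (adjusted p = 0.0857, edgeR). It was 0.69 without replicate 5 (adjusted p = 0.000618) and 1.07 with the replicate number as a block (adjusted p = 0.00701). Between 24 h and 5 days the change was 0.73 ± 0.40 without a call, 0.56 without replicate 5 and 0.93 with the block (adjusted p = 0.0204, edgeR). For these times only 1 of the 5 libraries at 24 h correlated best with its own number at 5 days. *SYT13* in SK-N-BE(2)C was at 0.702, 1.14, 0.0998, 0.0743 and 0.0541 CPM in control and 0.821, 2.05, 1.85, 2.38 and 1.21 CPM at 7 days, at most 44 counts in a library. At 24 h it was at 0.599, 0.590, 0.0603, 0.0558 and 0 CPM. Only replicates 1 and 2 had more than 0.1 CPM in control and at 24 h, and the 7-day range overlapped that of control. The gene passed the filter only through the 7-day libraries, in which it is high, so its differences in this line are given as levels with no p. In SH-SY5Y no control or 24 h library exceeded 0.209 CPM, and the 5-day libraries were at 0.434 to 0.949 CPM, which is 8 to 17 counts.

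**Figure D3:**
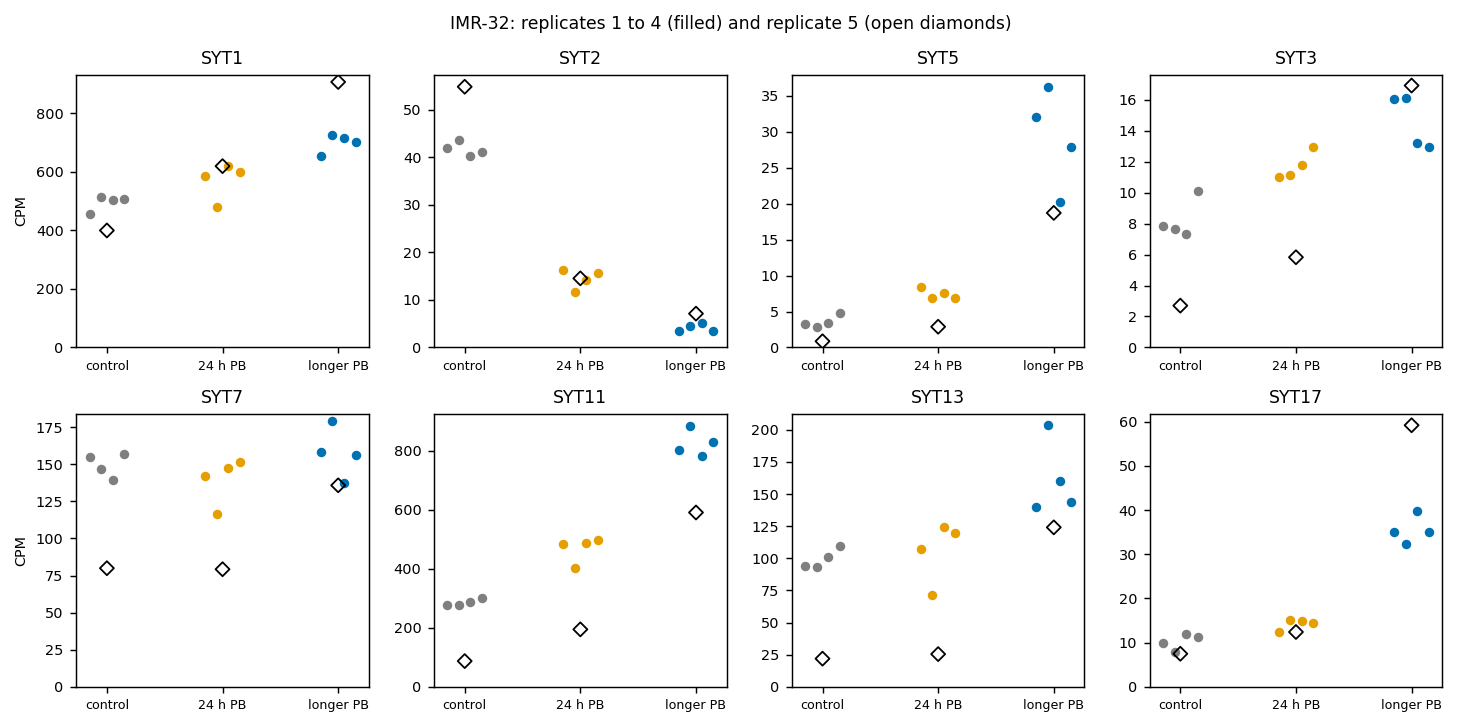
CPM of 8 synaptotagmin genes in the IMR-32 libraries by treatment, with replicate 5 drawn as open diamonds and replicates 1 to 4 as filled points. Replicate 5 sits lowest in control for *SYT11*, *SYT13* and *SYT7* and highest for *SYT2*, and it is the highest library after longer PB for *SYT1* and *SYT17*.

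*SYT6*, a relative of *SYT3*, gave 1 count in 1 control and 1 count in 1 7-day library of SK-N-BE(2)C and no count in the 15 SH-SY5Y libraries, where 3 counts would be 0.127 to 0.181 CPM. In IMR-32 its 5 libraries summed to 22 counts in control, 14 at 24 h and 3 after longer PB, and it was tested in no line. Of the other 7 synaptotagmins, 6 were in the counts, and *SYT10* was not analysed here. *SYT14* and *SYT16*, members that do not bind calcium, were called higher at 7 days in SK-N-BE(2)C (0.60 ± 0.093 and 1.37 ± 0.34, adjusted p = 2.33e-05 and 0.00163, edgeR) and in no comparison with control in the other lines. *SYT12* was at 0.286 to 1.86 CPM (6 to 44 counts) in control SH-SY5Y and 0.0604 to 0.840 CPM (1 to 15 counts) at 5 days. The ranges overlapped, and a call at this low level (−1.91 ± 0.58, adjusted p = 0.00814, edgeR) rests on a gene that passed the filter through its control and 24 h libraries. *SYT8* was at most 1.315 CPM in SH-SY5Y and 0 in the 15 IMR-32 libraries, and *SYT15*, which shares sequence with *SYT15B* and is uncertain for that reason, was at most 0.362 CPM.

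Per length, the order of the 10 genes was not the same in the lines. Control SK-N-BE(2)C was led by *SYT11* at 41.2 ± 1.24 RPKM and *SYT1* at 36.5 ± 2.01 RPKM (SD, n = 5), whose ranges did not overlap, followed at a distance by *SYT4* at 6.78 ± 0.87 RPKM and *SYT2* at 5.94 ± 2.20 RPKM, which did. In control IMR-32 *SYT1* (50.3 ± 5.13 RPKM) and *SYT11* (47.6 ± 17.3 RPKM) overlapped, as did *SYT4* (18.6 ± 1.87 RPKM), *SYT7* (17.9 ± 4.22 RPKM) and *SYT13* (15.4 ± 6.50 RPKM). In control SH-SY5Y *SYT4* (72.2 ± 16.9 RPKM) and *SYT11* (53.2 ± 4.94 RPKM) overlapped at the top, and *SYT1* followed at 11.9 ± 0.87 RPKM. After longer PB *SYT11* led in SK-N-BE(2)C at 130.7 ± 6.02 RPKM and in IMR-32 at 150.1 ± 21.5 RPKM, each without overlap with *SYT1* below it. In treated SH-SY5Y *SYT4* (154.3 ± 9.56 RPKM) and *SYT11* (128.7 ± 20.4 RPKM) still overlapped.

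**Figure D4:**
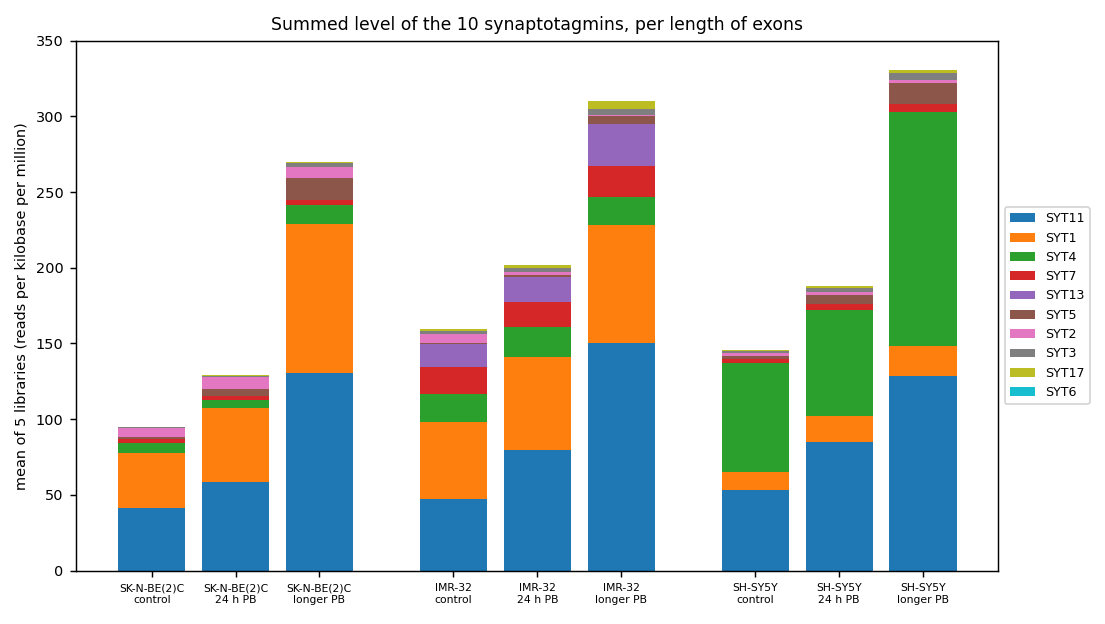
Mean RPKM of the 10 synaptotagmin genes stacked for each line and treatment, so that the height of a bar is the summed level of the family. The bars grow from 94.6 to 269.7, from 159.3 to 310.4 and from 145.8 to 330.5 RPKM between control and longer PB, with *SYT4* and *SYT11* the main parts in SH-SY5Y and *SYT11* and *SYT1* in the other lines.

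The untreated lines differed in most tested members, as they did in most genes. Between SK-N-BE(2)C and IMR-32, 4 of the 7 tested members were lower in SK-N-BE(2)C and none higher, where 62.1% of all genes were called. The differences were 7.47 ± 0.50 for *SYT13*, 4.16 ± 0.27 for *SYT17*, 2.92 ± 0.32 for *SYT7* and 1.44 ± 0.13 for *SYT4* on the log2 scale, each higher in IMR-32. IMR-32 exceeded SH-SY5Y in 5 members and was lower in *SYT4*, beside 54.2% of all genes called, and SK-N-BE(2)C exceeded SH-SY5Y in 3 and was lower in 2, beside 57.5%. *SYT13*, which is counted as lower in SH-SY5Y in both, had 0 to 3 counts in its control libraries. Its call between SK-N-BE(2)C and SH-SY5Y rested on SK-N-BE(2)C replicates 1 and 2, since it was lost when either number was left out. *SYT1* was 2.26 ± 0.079 higher in IMR-32 and 1.81 ± 0.078 higher in SK-N-BE(2)C than in SH-SY5Y, whereas *SYT4* was 1.77 ± 0.13 and 3.21 ± 0.14 lower in them than in SH-SY5Y on the log2 scale.

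Whether a response to PB differed between lines was tested in a joint fit of the 45 libraries, in which 7 of the 8 members other than *SYT3* and *SYT5* passed the filter. At 24 h the difference was called for *SYT2* between SK-N-BE(2)C and IMR-32 (2.01 ± 0.39, adjusted p = 0.000812, edgeR) and between IMR-32 and SH-SY5Y (−1.85 ± 0.40, adjusted p = 0.00374, edgeR), beside 4.49% and 3.07% of all genes. Between SK-N-BE(2)C and SH-SY5Y 0 members were called by edgeR at 24 h, where 2.04% of genes were, and 0 had an unadjusted p under 0.05. With the replicate number as a block, *SYT7* was called in addition at 24 h between IMR-32 and SH-SY5Y. DESeq2 was not run on the joint fit.

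For longer PB, 4 members differed between SK-N-BE(2)C and IMR-32, beside 23.9% of all genes. The log2 change of *SYT2* was 3.62 ± 0.41 greater in SK-N-BE(2)C, that of *SYT1* 0.79 ± 0.11, that of *SYT4* 0.88 ± 0.18 and that of *SYT17* 1.10 ± 0.35 (adjusted p = 7.61e-09, 1.86e-07, 0.00023 and 0.0129, edgeR). The *SYT17* difference was 0.60 when replicate 3 was left out and 1.04 when replicate 4 was, and was then not called (adjusted p = 0.237 and 0.0618, edgeR). Between SK-N-BE(2)C and SH-SY5Y 2 differed, beside 21.2%, *SYT17* by 1.93 ± 0.35 and *SYT1* by 0.70 ± 0.11, both greater in the former (adjusted p = 4.52e-05 and 2.95e-06, edgeR). Between IMR-32 and SH-SY5Y 3 differed, beside 20.8%. The signed log2 change of *SYT2*, which fell in IMR-32 and was not called in SH-SY5Y, was 3.56 ± 0.42 lower in IMR-32 and that of *SYT4* 1.13 ± 0.18 lower (adjusted p = 3.37e-08 and 5.96e-06, edgeR), and that of *SYT17* 0.83 ± 0.28 higher (adjusted p = 0.0211, edgeR), a call that was lost without IMR-32 replicate 5 (0.58, adjusted p = 0.0843, edgeR). That fit also called the change of *SYT13*, which is under 1 CPM in SH-SY5Y, lower in IMR-32 (−2.51, adjusted p = 0.0298, edgeR), where with all libraries the difference was −2.34 ± 1.28 (adjusted p = 0.17, edgeR). The call of *SYT17* was lost as well without replicate 2 of both lines (0.76, adjusted p = 0.0957, edgeR). With the replicate number as a block, *SYT7* (−0.86) and *SYT11* (0.51) were called in addition between IMR-32 and SH-SY5Y, and *SYT7* also between SK-N-BE(2)C and SH-SY5Y. Without the block no difference between lines was called for *SYT11*. Its longer changes differed by 0.00 ± 0.27 between SK-N-BE(2)C and IMR-32, with a 95% interval of −0.521 to 0.530.

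The proteins that synaptotagmins act with were read from lists of SNARE proteins, of SNARE regulators and vesicle proteins, and of other proteins with paired C2 domains. Of 11 tested SNARE genes, 6 rose and 2 fell after longer PB in SK-N-BE(2)C, 3 rose and 2 fell in IMR-32, and 5 rose and 1 fell in SH-SY5Y, with median log2 changes of 0.77, 0.19 and 0.47. Of the tested regulators, 4 of 17 rose and 1 fell in SK-N-BE(2)C, 6 of 18 rose and 2 fell in IMR-32, and 5 of 18 rose and 1 fell in SH-SY5Y, with medians of 0.14, 0.035 and 0.22. Of the other C2 proteins, 2 of 9 rose and 3 fell, 1 of 8 rose, and 2 of 11 rose and 1 fell in the same order of lines, with medians of −0.15, 0.38 and 0.12. The shares of all genes called in each direction are those given above for longer PB. Whether a gene of these lists passed the filter only through the libraries in which it is high was not checked.

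Across the lists, *NAPB*, *CADPS*, *STX1A*, *VAMP2* and *STXBP5* were among the genes called higher after longer PB in all 3 lines, and no gene was called lower in all 3. The share of all genes called alike in all 3 lines was not determined, so these genes are named as a description of the lists. *NAPB*, the neuronal SNAP that recycles SNARE complexes with NSF, changed by 2.46 ± 0.093, 1.06 ± 0.13 and 1.001 ± 0.076 in the 3 lines, in which the first value is for SK-N-BE(2)C, the next for IMR-32 and the last for SH-SY5Y, as in the values that follow. *CADPS*, which primes dense-core vesicles, changed by 1.97 ± 0.10, 0.69 ± 0.27 and 1.46 ± 0.20. The plasma membrane SNARE *STX1A* (1.26 ± 0.071, 0.61 ± 0.075 and 0.68 ± 0.084) and the vesicle SNARE *VAMP2* (0.80 ± 0.12, 1.27 ± 0.16 and 0.66 ± 0.059) rose with them, as did *STXBP5*, or tomosyn, which binds syntaxin and restrains release (0.75 ± 0.089, 0.53 ± 0.15 and 0.87 ± 0.11). The largest rise and fall within each line were *STXBP6* (3.93 ± 0.38), or amisyn, and *VAMP1* (−1.12 ± 0.28) in SK-N-BE(2)C, *SYTL4* (1.70 ± 0.25), or granuphilin, and *STON1* (−1.65 ± 0.20) in IMR-32, and *SYTL3* (2.21 ± 0.20) and *RPH3A* (−1.38 ± 0.29), or rabphilin, in SH-SY5Y. These 6 values were past the threshold in the line for which each is given.

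**Figure D5:**
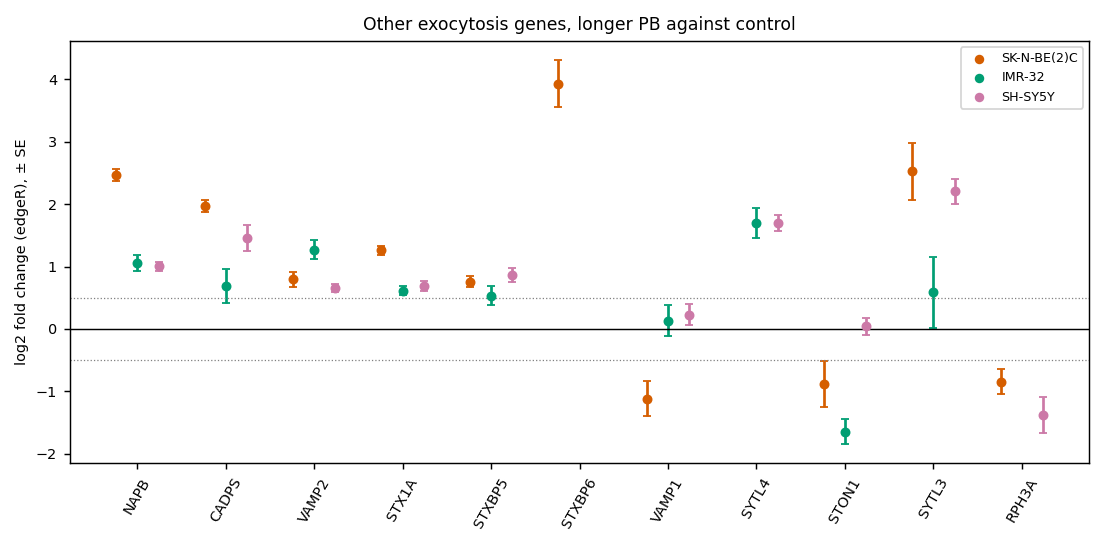
Log2 fold change after longer PB against control, with bars of 1 standard error, for the named partner genes in the 3 lines. *NAPB*, *CADPS*, *VAMP2*, *STX1A* and *STXBP5* lie above 0.5 in each, and *STXBP6* in SK-N-BE(2)C has the largest value, 3.93.

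The genes whose pattern was most like that of *SYT5* were ranked by Pearson's r of log2(CPM + 1) over the 45 libraries after the mean of each line was taken out, among 12556 genes. All these genes share the libraries, their depth and the treatment steps, so r is a description. The nearest to *SYT5* were *PPP2R5B* (r = 0.98), *MAP3K12* (r = 0.968), *MAPRE3* (r = 0.968), *ABCA7* (r = 0.965) and *SERINC1* (r = 0.961). The nearest to *SYT3* were *LMTK3* (r = 0.963), *BRSK1* (r = 0.96), *RUNDC3A* (r = 0.952), *SYN1* (r = 0.952), which encodes the vesicle protein synapsin I, and *SYP* (r = 0.951), which encodes synaptophysin. Within the family *SYT11* was the most like *SYT5*, with r = 0.951 and rank 19 of all genes, followed by *SYT3* (r = 0.912), *SYT17* (r = 0.883) and *SYT1* (r = 0.872). *SYT4* (r = 0.527) and *SYT7* (r = 0.458) were less alike, and *SYT2*, which fell in IMR-32 while its mean was higher after longer PB than in control in the other lines, had r = −0.418 over the 3 lines.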

How the data were processed

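Polyadenylated RNA of the 45 libraries was sequenced as directional paired reads. The authors trimmed reads with Trim Galore (0.6.4), aligned them to hg19 with STAR (2.6.1d in the submitters' processing notes) and deposited the gene counts STAR gave, which are raw counts of whole reads, with strand column and annotation not given in the sources used here. CPM tables that were deposited too and the authors' comparison tables (DESeq2 1.32.0, fold changes and p-values per line) were not used.

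The members and lists were chosen with earlier results of these data known. Genes were tested in R 4.3.3 with edgeR 4.0.16 (limma 3.58.1): TMM factors, filterByExpr (10 counts, 15 in total, share 0.7), and robust quasi-likelihood fits, by line (15 libraries) and of all 45 for differences between lines. The fits tested 14547 genes for SH-SY5Y, 14293 for IMR-32, 14055 for SK-N-BE(2)C and 16282 in the joint fit, with p adjusted over each by the Benjamini-Hochberg method, and calls needed a log2 fold change beyond 0.5 in size with an adjusted p below 0.05. SE is the log2 fold change over the square root of F. CPM used library totals, and RPKM the summed exon length of a GENCODE annotation on GRCh37. Scripts were tested on simulated counts. Partner genes were named where called alike in all 3 lines or as the largest rise and fall in a line, and like genes by the 5 highest r, apart from items not reported here.

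Libraries held 13459219 to 25441812 counts, and 3 counts were 0.118 to 0.223 CPM. Replicates of a group differed by at least 1.69 chi-square per degree of freedom, so no pair agreed within counting noise. In control and 24 h SK-N-BE(2)C, replicates 3 to 5 differed among themselves by 1.69 to 3.18 and other pairs by 7.05 to 23.6, and what replicates 3 to 5 share was not tested. Numbers were checked for pairing by the correlation of same-numbered libraries after group means were taken out. Every pair was over 0.1 in 6 of 9 comparisons (both against control for SK-N-BE(2)C, both with 5 days for IMR-32, and both with 24 h for SH-SY5Y). In these, 1 to 4 of 5 libraries correlated best with their own number. The lowest were 1 for 24 h and 5 days of IMR-32 and 2 for control and 7 days of SK-N-BE(2)C. An r over 0.1 alone does not show that the numbers pair the samples. Alternatives were DESeq2 1.42.0, RLE factors, library size alone, no filter, no fold limit, the replicate number as a block, replicates 3 to 5 of SK-N-BE(2)C summed, IMR-32 replicate 5 left out and each library left out in turn.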

Additional observations from a re-analysis of the deposited data

Results flagged for a closer look

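Of 79 sets of 5 libraries, each 1 gene in 1 group, 10 held a library far from the other 4 (a gap over 0.71 of the range), where chance gives about 1 in 20. IMR-32 replicate 5 gave 8 of them. In control it was high for *SYT2* (54.82 CPM, the next at 43.58) and low for *SYT7* (79.93 CPM, the next at 139.4), *SYT11* (87.06 CPM, the next at 278.4) and *SYT13* (21.89 CPM, the next at 93.12). At 24 h it was low for *SYT3* (5.825 CPM, the next at 11.0) and *SYT5* (2.881 CPM, the next at 6.811). After longer PB it was high for *SYT1* (907.2 CPM, the next at 725.3) and *SYT17* (59.2 CPM, the next at 39.89). The other 2 were of *SYT1*, in SK-N-BE(2)C replicate 2 at 7 days (1032 CPM, the next at 926.6) and in IMR-32 replicate 2 at 24 h (480.4 CPM, the next at 587.2). What set these libraries apart was not tested.

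Of 42 tests of whether a response to PB differed between 2 lines, 11 passed the threshold, 9 of them for longer PB. Of all genes, 2.04% to 4.49% did so at 24 h and 20.8% to 23.9% after longer PB. For SK-N-BE(2)C against IMR-32 these were *SYT2* at 24 h (a log2 difference of 2.01) and *SYT2* (3.62), *SYT17* (1.10), *SYT4* (0.88) and *SYT1* (0.79) after longer PB. For SK-N-BE(2)C against SH-SY5Y they were *SYT17* (1.93) and *SYT1* (0.70) after longer PB. For IMR-32 against SH-SY5Y they were *SYT2* at 24 h (−1.85) and *SYT2* (−3.56), *SYT4* (−1.13) and *SYT17* (0.83) after longer PB. The line and the length of longer PB cannot be told apart where SK-N-BE(2)C is one of the pair.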

How the results depend on the processing

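Of the values for counts of members called, 286 stayed within 1.5 times the main count and 11 moved. In SK-N-BE(2)C at 24 h the count of 0 was 3 with no fold limit (*SYT1*, *SYT4* and *SYT11*), 1 with library size alone and 1 in replicates 1 and 2 alone (*SYT11*, 0.50). In IMR-32 at 24 h it was 1 to 3 as single libraries were left out, against 2, and 3, with *SYT11*, by DESeq2 and without replicate 5 of all groups. *SYT13* was called between the longer changes of IMR-32 and SH-SY5Y without replicate 5 of both lines (−2.55, adjusted p = 0.0358, edgeR). In SH-SY5Y between 24 h and 5 days the count was 4 with no fold limit, 4 with library size alone and 1 to 4 as single libraries were left out, against 2. With the replicate block, *SYT7* was called in addition between IMR-32 and SH-SY5Y at 24 h (count 2 against 1), *SYT7* and *SYT11* after longer PB (count 5 against 3), and *SYT7* after longer PB between SK-N-BE(2)C and SH-SY5Y (−0.60, adjusted p = 0.0187, edgeR). In comparisons within a line the block changed the calls of *SYT13* given for IMR-32 and of *SYT11* at 24 h in IMR-32 (0.82, adjusted p = 0.000843, edgeR), where the numbers do not pair the samples by the check, and no other call. The block could not be estimated for differences between untreated lines and was not run there. The difference of *SYT5* between the longer changes of SK-N-BE(2)C and IMR-32, 0.15, turned to −0.005 and −0.13 without replicates 3 and 4 (−0.13 to 0.38 over the replicates), and that between the 24 h changes of SK-N-BE(2)C and SH-SY5Y, −0.098, to 0.015 without replicate 5 (−0.18 to 0.015 over the replicates). For single genes, 36 values gained a call, 30 lost one, 2 moved (*SYT3* at 7 days in SK-N-BE(2)C), and 2539 were counted as unchanged. For tested genes, a value called in neither fit was counted as unchanged even where its sign turned. The fits of replicates 1 and 2 and of 3 to 5 alone, and the joint fit without IMR-32 replicate 5, were chosen after seeing the data. The causes were not tested. At this depth 3 counts are at most 0.223 CPM, so *SYT6* in any line and *SYT13* within SH-SY5Y did not pass the filter and were not tested there.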
